A study of Mus musculus with 2 samples.

Results

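The 39 genes described here encode homeodomain transcription factors outside the Hox clusters. They were chosen by name as the listed Lhx, Nkx, Dlx, Irx, Msx, Emx and En genes with Six2 to Six6, all 39 were found in the annotation, and they are 39 of 22367 protein-coding genes. Open chromatin had been measured by ATAC-seq, which reads where Tn5 transposase can reach the DNA between nucleosomes and insert its adapters. The samples were wild-type (WT) E14 mouse embryonic stem cells (ESCs) and Uhrf1 KO E14 ESCs, both undifferentiated and cultured with leukemia inhibitory factor on gelatin or on embryonic fibroblasts (MEF), with 50000 cells lysed for each library. There was 1 library per genotype, and the study had received both lines from another group. A difference between the lists is therefore a difference between these libraries, and genotype cannot be told apart from the history of a cell line.

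Homeodomain proteins bind DNA through a helix-turn-helix fold and assign regional and cell identity in the embryo. In ESCs their genes are mostly silent, and many of their promoters are CpG islands that carry the active mark H3K4me3 together with the Polycomb mark H3K27me3, a state called bivalent. Uhrf1 recognises hemimethylated DNA and brings the maintenance methyltransferase Dnmt1 to replicated DNA, and the study asked what its loss does to such promoters. The marks themselves were not analysed here.

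The deposited values are positions of open regions (peaks) on mm9, without read counts. A peak was counted in a gene's window when its middle lay in the gene or within 10 kb of it, and as a promoter peak when its middle lay within 2 kb of an annotated transcript start. Distances are measured from the middle of a peak, upstream or after the start in the direction of transcription. A peak with a peak of the other library at a gap of up to 100 bp was called shared, and otherwise WT-only or KO-only. Intervals in brackets are exact 95% intervals, Poisson for numbers and binomial (Clopper-Pearson) for shares and, through the share of KO peaks, for ratios, and cover counting error only. The depth behind a single peak is unknown, so the lack of a listed peak does not show closed chromatin. The members' peaks were each 101 bp wide, so an open region longer than that is listed as several neighbouring peaks. Such neighbours are not independent, but the intervals for peak numbers, shares of peaks and ratios count each peak singly. These intervals are therefore likely too narrow, also where a value of all peaks or genes is said to lie outside them.

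The whole WT list held 71914 peaks and the KO list 61640, a KO/WT ratio of 0.857 (0.848 to 0.866). Of 10 ESC marker genes, 10 had a promoter peak in each list, as did 6 of 6 primitive endoderm genes. Of 10 fibroblast genes, which feeder cells could contribute, 7 had one in WT (1 to 8 peaks) and 5 in KO (1 to 6 peaks), and Col3a1, Postn and Lum had 0 in both. Of all protein-coding genes 63.6% had one in WT and 58.7% in KO, so these counts do not tell cell types apart. The part of feeder cells in the results below was not tested. Chromosome 8, which holds Irx3, Irx5 and Irx6, had 4792 WT and 3072 KO peaks, a ratio of 0.641 against 0.873 on the other chromosomes. The Uhrf1 promoter held 2 WT and 3 KO peaks and does not check the genotype labels.

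The sequences of listed regions show what kind of DNA was open at these genes. They are given for the members with the most promoter peaks in each list (Lhx9 in WT, Nkx2-2 and Irx2 in KO), in each case the promoter peak nearest to a transcript start that touched no untranslated region, and for the promoter peaks outside untranslated regions of Six2 and Dlx3, the members with a promoter peak in the WT list only. An En1 peak was added after its values were seen, as an example from outside the promoters. All are 5′ to 3′ on the plus strand of mm9, with CpG dinucleotides in capitals.
Lhx9, WT peak 99 bp upstream of the gene start, shared, chr1:140745202-140745302: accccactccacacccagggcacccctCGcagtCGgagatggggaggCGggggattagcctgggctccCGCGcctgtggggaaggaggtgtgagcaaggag
Irx2, KO peak 120 bp upstream, shared, chr13:72766075-72766175: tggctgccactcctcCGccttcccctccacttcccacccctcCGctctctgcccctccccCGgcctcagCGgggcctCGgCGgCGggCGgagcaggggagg
Nkx2-2, KO peak 797 bp before an inner transcript start and in an intron of longer transcripts, shared, chr2:147012885-147012985: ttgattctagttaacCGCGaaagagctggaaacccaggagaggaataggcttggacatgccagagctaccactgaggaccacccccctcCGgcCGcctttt
Six2, WT-only peak 121 bp upstream, chr17:86087665-86087765: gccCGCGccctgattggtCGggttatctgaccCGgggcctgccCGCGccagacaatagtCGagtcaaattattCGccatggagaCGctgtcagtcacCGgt
Six2, WT-only peak 281 bp upstream, chr17:86087825-86087925: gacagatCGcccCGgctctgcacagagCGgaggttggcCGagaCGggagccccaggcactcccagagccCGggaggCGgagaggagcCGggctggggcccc
Dlx3, WT-only peak 1386 bp upstream, chr11:94979967-94980067: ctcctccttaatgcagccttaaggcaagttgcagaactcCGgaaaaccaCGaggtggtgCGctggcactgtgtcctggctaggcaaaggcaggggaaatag
En1, WT-only peak 5758 bp upstream, chr1:122493187-122493287: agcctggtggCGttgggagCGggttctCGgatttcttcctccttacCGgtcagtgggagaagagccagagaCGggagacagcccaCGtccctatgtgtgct
The Lhx9, Irx2 and Nkx2-2 sequences held 5, 8 and 4 CpGs. The Six2 sequences held 10 and 8 and were not poorer in CpG than those shared regions. The Dlx3 sequence held 3 and the En1 sequence 6. The WT-only Dlx3 peak 39 bp upstream and Six2 peak 194 bp after the start touch an untranslated region and are not shown. They held 9 and 14 CpGs.

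Nearly all members had an open promoter in ESCs of both genotypes. Of 39 members, 36 (92.3%, 79.1 to 98.4) had a promoter peak in WT and 34 (87.2%, 72.6 to 95.7) in KO, against a background of 63.6% and 58.7% of all protein-coding genes. Each list had a promoter peak for 34 members. Neither had one for 3, Lhx5, Nkx2-5 and Six3, or 7.69% against 34.6% of all genes. The lists need not hold the same peak. At Lhx6 all 3 WT promoter peaks were WT-only and its 1 KO promoter peak was KO-only. Only the WT list had a promoter peak for 2 members (5.13%, 0.627 to 17.3), Six2 and Dlx3, close to the background of 6.64%. No member had one in the KO list only (0%, up to 9.03%), against 1.73% of all genes. The number of members with a promoter peak in the WT list only depended on the setting. It was 4 (background 6.87%) when only the gene start counted and 1 (5.42%) with the WT list shortened to the length of the KO list. It was 8 (9.66%) when each list was cut to the 50% of its peaks with the lowest numbers in their deposited names. After that cut 29 members had a WT and 22 a KO promoter peak, against 53.6% and 45.9% of all genes.

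Most members had fewer listed peaks in KO. The members' windows held 220 distinct WT peaks and 119 KO peaks, a KO/WT ratio of 0.541 (0.429 to 0.679), below the 0.857 of all listed peaks and the 0.807 (0.797 to 0.818) of the windows of all protein-coding genes. The median member had 6 WT peaks and 3 KO peaks. Fewer peaks were listed in KO for 28 of 39 members, the same number for 9 and more for 2, Dlx1 and Dlx6. Among all protein-coding genes, 43.1% had fewer, 37.6% as many and 19.2% more. Of the 31 members with at least 4 peaks in both lists together, 17 (54.8%) had at least 2 times fewer KO peaks, against a background of 21.9%, and 0 had at least 2 times more, against 4.78%. Members have more peaks than the typical gene, so the comparison was also made among genes with similar numbers. With 0 to 3 peaks in both lists together, 2 of 8 members had fewer KO peaks against 23.0% of all genes. With 4 to 7 peaks, the numbers were 10 of 12 against 51.5%, with 8 to 12 peaks 9 of 10 against 57.1%, and with 13 or more 7 of 9 against 64.5%. The intervals (3.19% to 65.1%, 51.6% to 97.9%, 55.5% to 99.7% and 40.0% to 97.2%) included the value of all genes except at 4 to 7 peaks, where the interval just missed it.

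**Figure D1:**
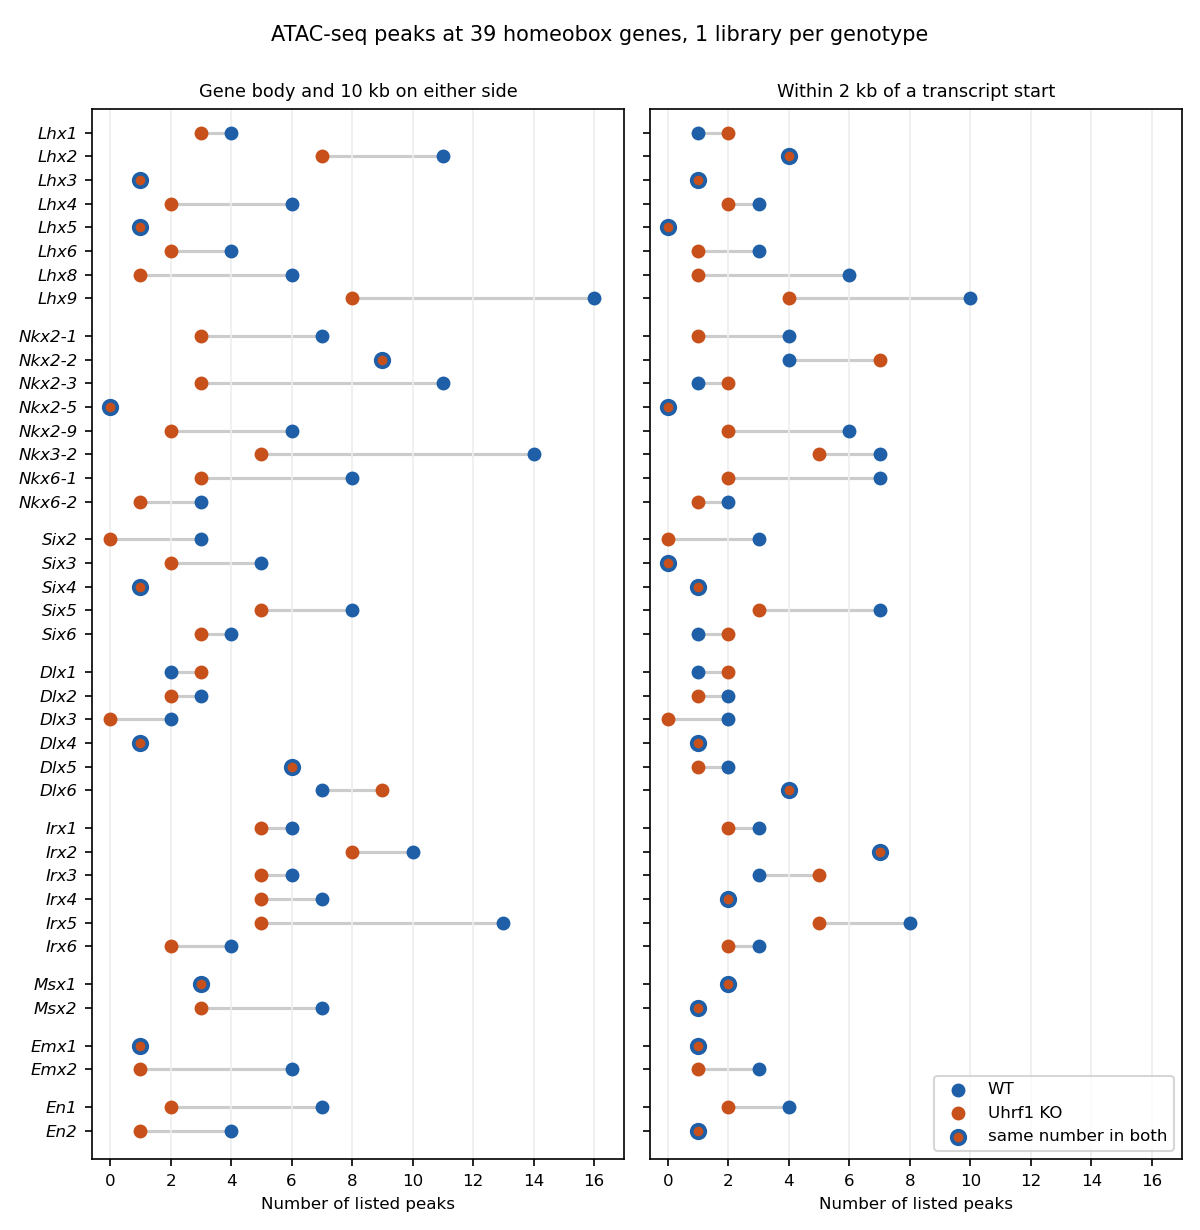
Number of listed peaks (x axis) at each of the 39 genes (y axis, by family), in the gene with 10 kb on either side (left) and within 2 kb of a transcript start (right), with WT in blue, Uhrf1 KO in orange and a ringed point where both are equal. In the left panel the KO point lies left of the WT point for 28 genes and right of it only for Dlx1 and Dlx6.

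Over all members together, the KO/WT ratio was lower away from the promoters than at them. Promoter peaks numbered 121 in WT and 81 in KO, a ratio of 0.669 (0.499 to 0.894), beside 0.762 for all protein-coding genes. Peaks in the rest of the gene or its flanks numbered 99 in WT and 38 in KO, a ratio of 0.384 (0.257 to 0.563), beside 0.898 (0.879 to 0.917). For all genes this zone leaves out peaks within 2 kb of any protein-coding start, for the members only those near a member's start. Some of the members' peaks in it, at Lhx9, Lhx1 and Six5, lay within 2 kb of another gene's start. The same holds for the shares of WT-only and KO-only peaks in this zone, here and by place. The members' intervals at and away from promoters overlap, and not every family showed this order. The ratio was higher outside promoters among the Dlx genes (0.750 at promoters, 1.17 outside) and Six2 to Six6 (0.50 and 0.556), and lower among the Lhx genes (0.536 and 0.476), the Nkx genes (0.645 and 0.222), the Irx genes (0.885 and 0.350) and the Msx genes (1.00 and 0.429). Among the 70 other homeobox genes (0.564 and 0.550) and the 39 Hox genes (0.50 and 0.529), the values at and away from promoters were close. Outside promoters, 30 members had a peak in WT (background 56.1% of all protein-coding genes) and 21 in KO (53.6%), and the 9 (background 9.21%) members with one in the WT list only were Lhx4, Nkx3-2, Nkx6-2, Irx3, Irx5, Irx6, Emx2, En1 and En2. No member had one in the KO list only, against 6.68%. Of the 99 WT peaks of this kind 59 (59.6%, 49.3 to 69.3) were WT-only, against 38.6% of all WT peaks farther than 2 kb from a protein-coding start. Of the 38 KO peaks 5 (13.2%, 4.41 to 28.1) were KO-only, against 37.5% of all KO peaks at that distance, without matching for GC content. Of the 121 promoter peaks of WT 39 (32.2%, 24.0 to 41.3) were WT-only, against 25.6%, and of the 81 of KO 9 (11.1%, 5.21 to 20) were KO-only, against 8.91%.

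By place in the gene, 29 of 48 WT peaks in introns were WT-only (60.4%, 45.3 to 74.2), against 39.1% in the windows of all protein-coding genes. Upstream of the gene, promoters included, 37 of 83 were WT-only (44.6%, 33.7 to 55.9), against 19.8%. The members had a smaller part of their upstream peaks at promoters than all genes. By zone, 18 of 52 upstream peaks at promoters were WT-only (34.6%, against 15.9%) and 19 of 31 outside them (61.3%, against 37.0%). The members' intervals included the value of all genes in 5′ UTRs, with 3 of 26 (11.5%, 2.45 to 30.2, against 21.3%), in coding exons, with 11 of 29 (37.9%, 20.7 to 57.7, against 46.4%), and in downstream flanks, with 15 of 30 (50%, 31.3 to 68.7, against 38.9%). The coding exons differed by zone. At promoters 1 of 14 WT peaks in them was WT-only (7.14%, 0.181 to 33.9), below the 43.7% of all genes. Outside promoters 10 of 15 were (66.7%, 38.4 to 88.2, against 54.1%). The 3 WT peaks in 3′ UTRs were WT-only, and the 1 in a non-coding exon was shared. In KO, introns held 23 peaks, of which 5 were KO-only (21.7%, 7.46 to 43.7, against 29.9%), and downstream flanks held 12, of which 0 were (up to 26.5%, against 32.2%). Over all places 98 of 220 WT peaks (44.5%, 37.9 to 51.4) were WT-only, against 32.1% of the whole list. Of the 119 KO peaks 14 (11.8%, 6.58 to 19.0) were KO-only, against 24.6% of the whole list. In the windows of all protein-coding genes these shares were 30.8% and 19.1%. The members' KO-only share was not lower than that of all peaks in every class of GC content, as given below. Of the 98 WT-only peaks, 18 had a KO peak within 500 bp, 27 between 500 bp and 2 kb away and 53 (54.1%) farther than 2 kb, with a median of 2244 bp. Of all WT-only peaks in the list 62.9% lay farther than 2 kb from a KO peak, with a median of 6677 bp. Of the members' 14 KO-only peaks 3 (21.4%) lay farther than 2 kb from a WT peak, with a median of 934 bp, against 78.8% and 12949 bp of all KO-only peaks.

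**Figure D2:**
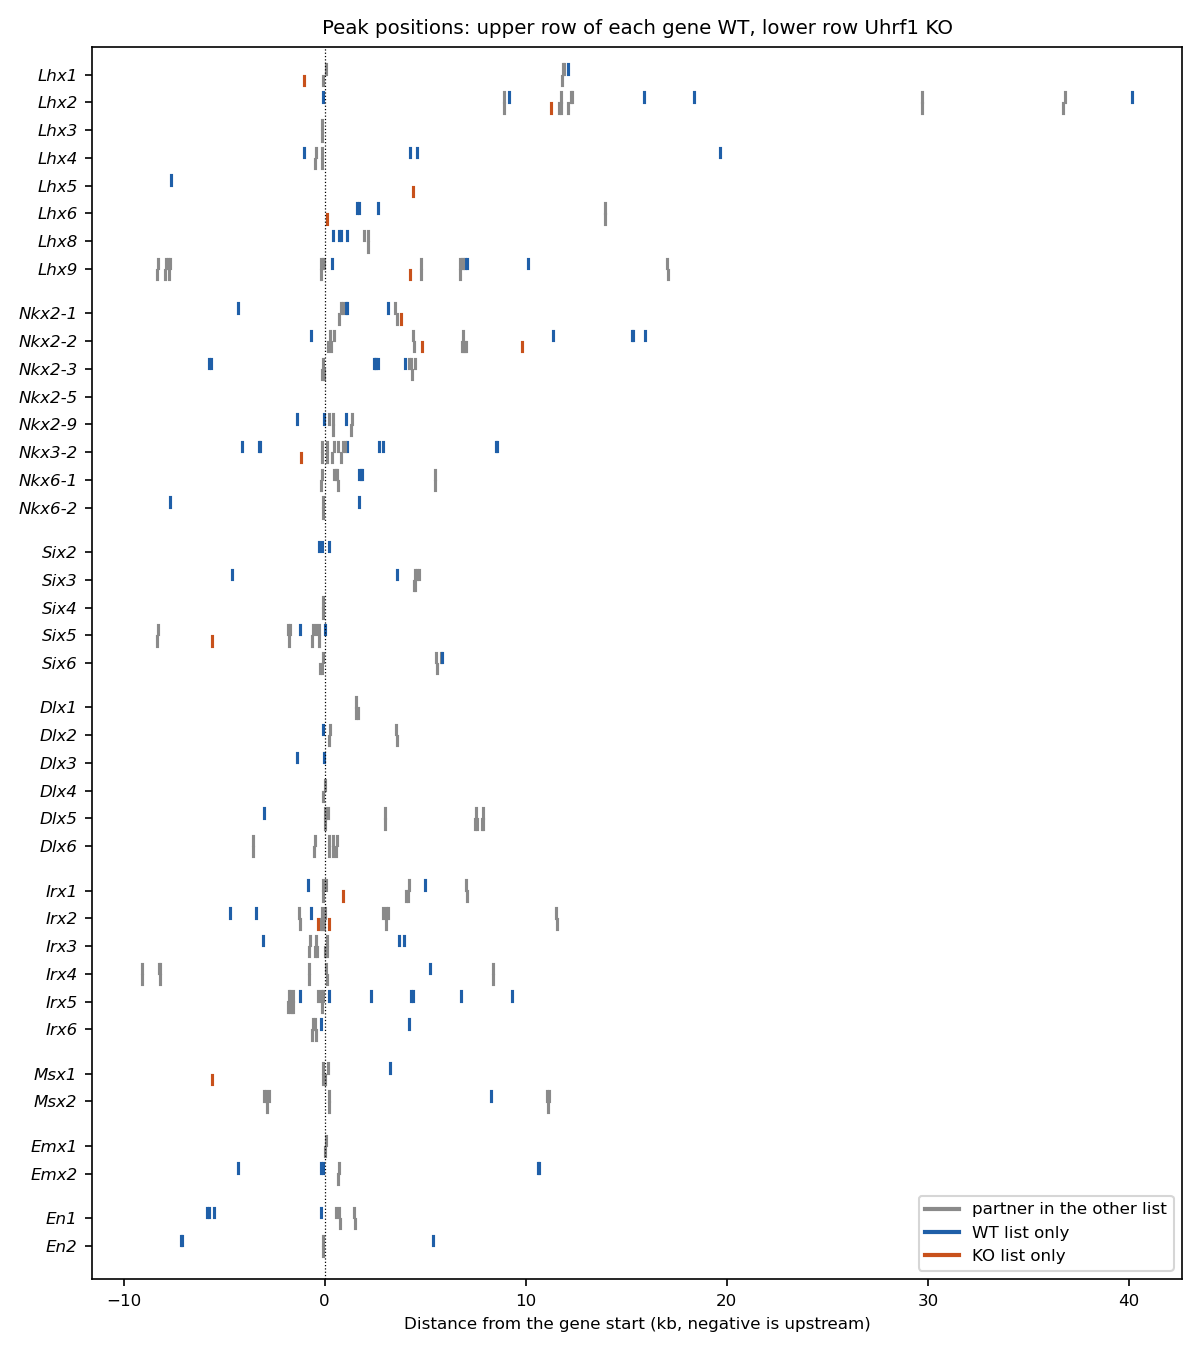
Position of each peak (x axis, kb from the gene start in the direction of transcription) at each gene (y axis), with WT in the upper and KO in the lower row and colour giving shared (grey), WT-only (blue) and KO-only (orange) peaks; a peak in the windows of 2 members is drawn once. Of the 59 WT-only peaks outside promoters, 19 lay in upstream flanks, 15 in downstream flanks, 13 in introns, 10 in coding exons and 2 in 3′ UTRs.

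Several peaks often marked 1 open stretch. When the peaks of both lists were joined over gaps of up to 1 kb, the members had 109 stretches, of which 42 (38.5%) held WT peaks alone and 5 (4.59%) KO peaks alone, against 23.3% and 16.9% in the windows of all protein-coding genes. Of the 34 stretches of 4 or more peaks, 24 (70.6%, 52.5 to 84.9) held fewer KO than WT peaks, 5 as many and 5 more, against 49.4% with fewer among all genes, and only 1 of them held WT peaks alone. Of the 42 stretches of 2 or 3 peaks, 17 (40.5%, 25.6 to 56.7) held fewer KO peaks, against 27.4%. Of the 33 stretches of a single peak, 28 (84.8%, 68.1 to 94.9) were WT peaks, against 55.3%.

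The 8 LIM-homeodomain (Lhx) genes, which pair a homeodomain with LIM domains and act in neuronal, limb and gonad development, had 49 WT and 25 KO peaks, a ratio of 0.510 (0.302 to 0.842). Lhx9 (chromosome 1, 140721763 to 140745153, minus strand), a regulator of gonad formation, had the most peaks of all members, 16 in WT (9.15 to 26.0) and 8 in KO (3.45 to 15.8). Its promoter peaks numbered 10 and 4, and the 3 WT peaks from 30 to 176 bp upstream, the region of the sequence above, faced 1 KO peak 179 bp upstream. A further 4 WT and 3 KO peaks about 8 kb upstream lay within 2 kb of the start of another protein-coding gene.
Lhx8, which marks basal forebrain cholinergic neurons, had 6 WT peaks, all at promoters, and 1 KO peak 145 bp after a transcript start. Its 4 WT-only peaks lay in an intron of longer transcripts. Lhx2, needed for forebrain and hair follicle stem cells, had 11 WT (5.49 to 19.7) and 7 KO (2.81 to 14.4) peaks but 4 promoter peaks in each list. Its gene start itself had a WT-only peak, 95 bp upstream, whose nearest KO peak was 9001 bp away.
Lhx4 and Lhx6 had 6 and 4 WT peaks against 2 and 2 KO peaks. With Lhx8 and Lhx9 they make up the 4 of 6 tested Lhx genes with at least 2 times fewer KO peaks (background 21.9%). Lhx1, an early organiser gene, had 4 and 3. Lhx3, a pituitary and motor neuron factor, had 1 shared promoter peak in each list. Lhx5 had no promoter peak, 1 WT-only peak 7638 bp upstream and 1 KO-only peak in an intron.

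The Nkx genes pattern the ventral neural tube, gut, heart and skeleton. Their 58 WT and 26 KO peaks gave a ratio of 0.448 (0.271 to 0.724), and 6 of 7 tested members had at least 2 times fewer KO peaks (background 21.9%). Outside promoters they had 27 WT and 6 KO peaks, a ratio of 0.222 (0.0750 to 0.549). Nkx3-2 (chromosome 5, 42152404 to 42155735, minus strand), a cartilage and spleen factor, had 14 WT (7.65 to 23.5) and 5 KO peaks (1.62 to 11.7). All 5 KO peaks were at the promoter, where WT had 7, and the 7 WT peaks outside it, from 4103 bp upstream to the downstream flank, had no KO counterpart.
Nkx2-3, a spleen and gut factor, had 11 WT (5.49 to 19.7) and 3 KO peaks (0.619 to 8.77). At its promoter the order was the other way, with 1 WT and 2 KO peaks. A run of 4 WT-only peaks covered its coding exon from 2435 to 2635 bp after the start, at least 1690 bp from any KO peak. Nkx2-1, which specifies thyroid, lung and ventral forebrain, had 7 and 3 peaks, with 4 and 1 at promoters.
Nkx2-2 (chromosome 2, 147003282 to 147019979, minus strand), which specifies ventral interneurons and pancreatic beta cells, was an exception among the Nkx genes with many peaks, with 9 (4.12 to 17.1) in each list. Its promoter peaks numbered 4 in WT and 7 in KO, and 4 of the KO peaks adjoined between 797 and 1001 bp before an inner start, where WT had 1 peak. Outside the promoter it had 5 WT peaks, 4 of them WT-only in an intron, and 2 KO peaks.
Nkx2-9 had 6 and 2 peaks and Nkx6-1, a beta cell and motor neuron factor, 8 (3.45 to 15.8) and 3 (0.619 to 8.77), with 7 and 2 at the promoter. Nkx6-2 had 3 and 1. Nkx2-5, the cardiac factor, had 0 peaks in either list (up to 3.69 each) and was the only member without any peak in its window.

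Six2 to Six6 act in eye, kidney and muscle development, and their 21 WT and 11 KO peaks gave a ratio of 0.524 (0.228 to 1.14). Six2 (chromosome 17, 86083608 to 86087594, minus strand), which maintains nephron progenitors, had 3 WT peaks (0.619 to 8.77) around its start and 0 KO peaks (up to 3.69). The nearest KO peak to the sequence 121 bp upstream was 41813 bp away. Six3, an early eye and forebrain gene, had 5 WT and 2 KO peaks, none within 2 kb of a transcript start. Its KO peaks and 3 of the WT peaks lay between 2544 and 2797 bp before an inner start. Six5 had 8 and 5 peaks, of which 7 and 5 lay within 2 kb of another gene's start. Six4 had 1 shared promoter peak, and Six6 had 4 and 3 peaks.

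The Dlx genes, which act in forebrain interneurons, jaw and limb and lie in pairs, had 18 WT and 16 KO peaks, a ratio of 0.889 (0.424 to 1.85), the nearest to 1 of the families but with an interval that overlaps those of all the others. Of their 16 KO peaks 0 were KO-only (up to 20.6%), and 4 of 18 WT peaks were WT-only (22.2%, 6.41 to 47.6). Dlx5 and Dlx6 share part of their windows. Dlx6 had 7 WT (2.81 to 14.4) and 9 KO peaks (4.12 to 17.1), with 4 promoter peaks in each, and Dlx5 had 6 and 6. The region between them held 2 WT and 4 KO peaks counted for both genes. Dlx1 had 2 WT and 3 KO peaks and Dlx2 had 3 and 2, with 1 of each list counted for both.
Dlx3, needed for placenta, skin and bone, was the exception in the family, with 2 WT peaks (0.242 to 7.22) 39 and 1386 bp upstream and 0 KO peaks (up to 3.69). The nearest KO peaks to them were 26285 and 27632 bp away. Dlx4, whose window overlaps that of Dlx3, had 1 shared promoter peak in each list. The 4 Dlx genes tested by the fold rule included 0 with at least 2 times fewer KO peaks. These are too few genes to set against the 21.9% of all protein-coding genes.

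The Iroquois genes Irx1 to Irx6 lie in clusters on chromosomes 13 and 8 and pattern neural, heart and limb tissue. Their 46 WT and 30 KO peaks gave a ratio of 0.652 (0.397 to 1.06). At the promoters the lists nearly matched, with 26 WT and 23 KO peaks, a ratio of 0.885 (0.482 to 1.61), whereas outside them 20 WT and 7 KO peaks gave 0.350 (0.125 to 0.862). Irx2 had 10 WT (4.80 to 18.4) and 8 KO peaks (3.45 to 15.8), with 7 promoter peaks in each list, and its peak at the sequence shown above began 2 bp apart in the lists.
Irx1 and Irx4, its neighbours on chromosome 13, had 6 and 7 WT peaks against 5 each in KO. On chromosome 8, Irx5 (94881695 to 94885351, plus strand) had 13 WT (6.92 to 22.2) and 5 KO peaks (1.62 to 11.7), the 5 KO peaks all between 111 and 1802 bp upstream. Its 5 WT peaks from the coding exon to 9335 bp after the start were WT-only. Its promoter peaks also lay within 2 kb of another gene's start.
Irx3 had 6 WT and 5 KO peaks, all 5 KO peaks at its promoter where WT had 3. Irx6 had 4 and 2. The KO/WT ratio of the members outside chromosome 8, 197 WT and 107 KO peaks, was 0.543 (0.425 to 0.691).

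The Msx, Emx and En genes had few peaks, and their intervals are wide. Msx2, a BMP-responsive factor of skull and limb, had 7 WT (2.81 to 14.4) and 3 KO peaks (0.619 to 8.77), with 1 shared peak in its 5′ UTR. Of the 7 WT peaks only 1 was WT-only. The 3 adjoining WT peaks upstream faced 1 KO peak, and those 11081 and 11142 bp after the start faced another. Msx1 had 3 in each list.
Emx2, a cortex and urogenital factor, had 6 WT (2.20 to 13.1) and 1 KO peak, the latter shared and in a coding exon. Its 2 WT peaks 74 and 160 bp upstream were WT-only, with the nearest KO peak 761 and 847 bp away. Emx1 had 1 shared peak at its start.
En1, a midbrain and limb factor, had 7 WT (2.81 to 14.4) and 2 KO peaks (0.242 to 7.22). The KO peaks both lay in its first 2 kb, and the 3 WT peaks between 5486 and 5849 bp upstream, which include the sequence above, were at least 6231 bp from any KO peak. En2 had 4 WT peaks and 1 KO peak, a shared one just upstream of its start. The Emx and En genes had 9 WT peaks and no KO peak outside promoters.

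**Figure D3:**
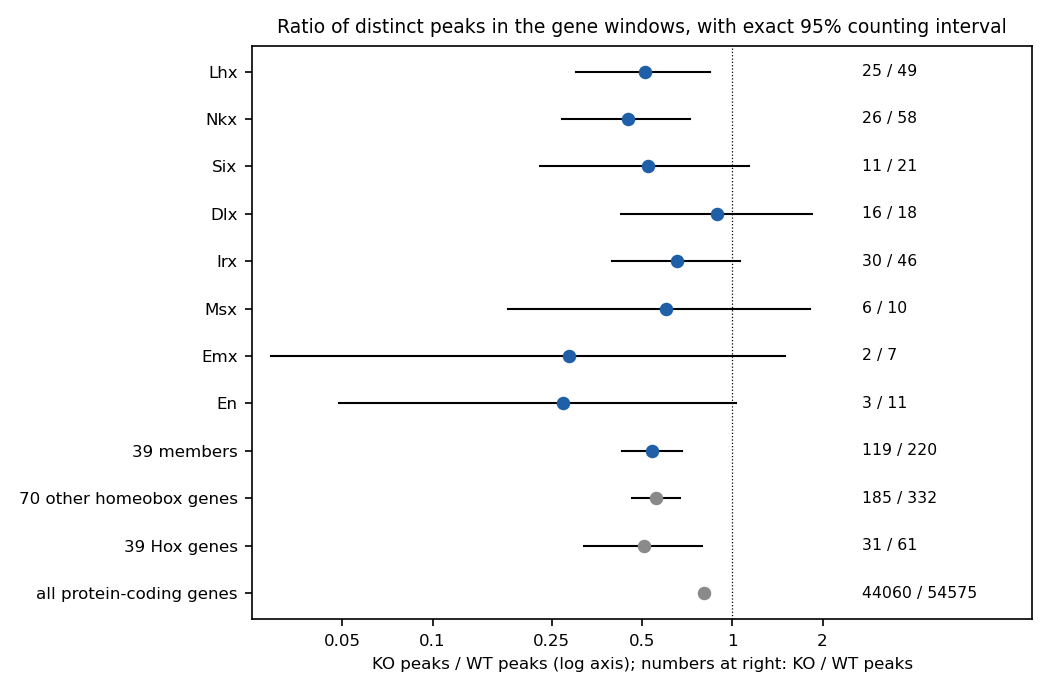
KO/WT ratio of distinct peaks in the gene windows (x axis, log scale) for each family, the 39 members, 2 other homeobox lists and all protein-coding genes (y axis), with exact 95% counting intervals as lines and KO / WT peak numbers at the right. All families lie below 1, the Lhx and Nkx intervals also end below 1, and Dlx at 0.889 lies nearest to 1.

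Low ratios were also found in other homeobox lists. The 70 other homeobox genes had 332 WT and 185 KO peaks, a ratio of 0.557 (0.463 to 0.669), and the 39 Hox genes 61 and 31, a ratio of 0.508 (0.319 to 0.795). Their intervals overlap that of the members. Open promoters were less frequent in those lists, at 58 WT and 45 KO of 70 and at 26 WT and 16 KO of 39. Promoters with a peak in the WT list only numbered 14 of 70 (20%, 11.4 to 31.3) and 10 of 39 (25.6%, 13 to 42.1), against 2 of 39 members. The fold of at least 2 in the direction of fewer KO peaks was met by 24 of 49 and 13 of 26 tested genes, beside the 17 of 31 members and 21.9% of all genes. Windows of Hox genes overlap, so the same peak can count for several of them. Their gene counts are therefore not independent, and the interval for their promoters may be too narrow.

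The members' peaks were rich in GC and CpG. The median GC content of the central 200 bp was 64.5% in WT and 65.0% in KO, against 59.5% and 56.5% in the whole lists, and the median number of CpGs was 14 in each, against 9 and 6. Shared WT peaks of the members had a median of 66.0% GC and 15 CpGs, and WT-only peaks 62.5% and 12. The KO/WT ratio of all listed peaks also moved with GC content, from 1.35 below 50% GC over 0.855 and 0.721 to 0.654 at 70% or more. Among the members it was 0.548 (0.314 to 0.932) from 50 to 60%, 0.516 (0.376 to 0.701) from 60 to 70% and 0.577 (0.355 to 0.921) above. At the rates of all listed peaks in the same GC classes, the members' 220 WT peaks would face 161 KO peaks, a ratio of 0.731, where 119 were listed. WT-only peaks made up 57.1% (41.0 to 72.3), 48.4% (39.4 to 57.5) and 25% (14.0 to 38.9) of the members' WT peaks in these classes, against 37.9%, 28.4% and 26.9% of all. The value of all peaks lay outside the members' interval in the lower classes and inside it in the highest.

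The names of the peaks carry a running number for each chromosome, and its meaning is not given in the sources used here. In both lists, the share of peaks with a partner declined as this number went up. The members' WT peaks had a median at the 59.2 percentile of these numbers, the shared ones at 44.6 and the WT-only ones at 72.7. From the lowest to the highest quartile of the numbers, 2.94%, 30.6%, 52.2% and 67.6% of the members' WT peaks were WT-only, against 1.77%, 19.9%, 45.0% and 61.6% of all. In each quartile the members' interval included the value of all peaks, narrowly so in the second (18.3 to 45.4). At the rates of all peaks in the same quartiles, 83.2 WT-only peaks would be counted at the members, where 98 were. The part of GC content and of this number in the members' values was not tested.

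**Figure D4:**
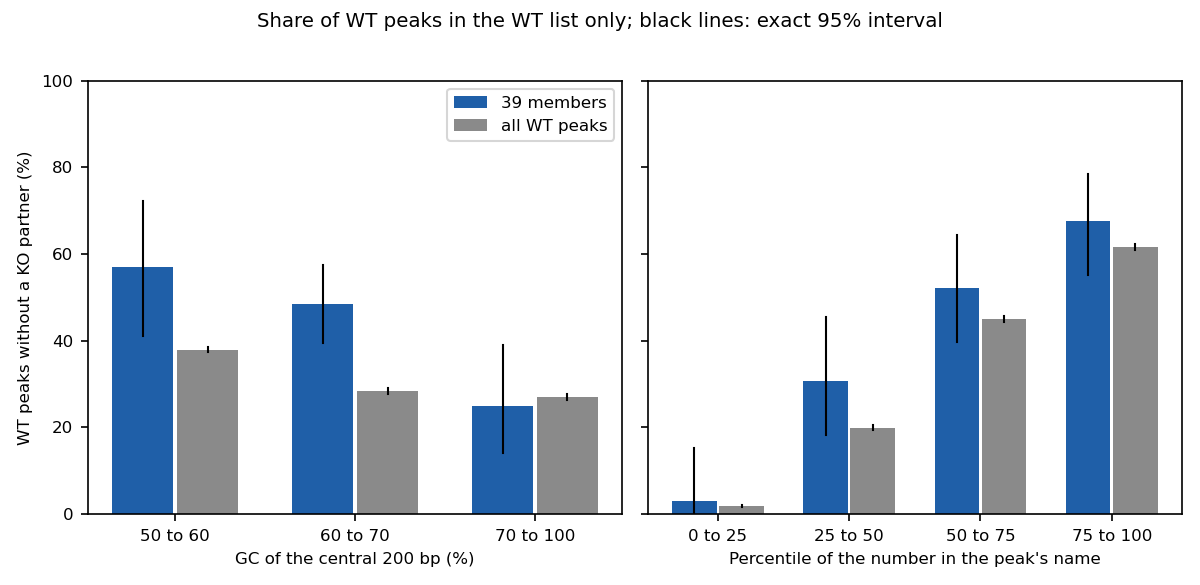
Share of WT peaks that were WT-only (y axis, percent, from 0) by GC content of the central 200 bp (left) and by quartile of the number in the peak's name (right), for the members (blue) and all WT peaks (grey), with exact 95% intervals as black lines. The blue bar stands at 57.1% and 48.4% against 37.9% and 28.4% in the lower GC classes and at 25% against 26.9% in the highest.

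In the central 200 bp, on both strands, GGGCGG, the GC box of Sp and Klf factors, was found in 50.5% (43.7 to 57.2) of the members' WT peaks and 58.0% (48.6 to 67.0) of their KO peaks, against 38.4% and 34.5% of all. GGGCGG holds only G and C, and the members' peaks were richer in GC than the whole lists. No comparison at equal GC content was made for it. TAATTA, a common homeodomain site, was in 2 of 220 WT and 3 of 119 KO peaks (0.909% and 2.52%, against 1.88% and 2.50% of all). The Oct4 octamer ATGCAAAT was in 1 WT peak (0.455%, 0.0115 to 2.51, against 1.58% of all) and 0 KO peaks (up to 3.05%, against 1.94%). Both intervals included the value of all peaks. The E-box CACGTG was in 5.00% of WT and 5.04% of KO peaks, against 5.41% and 5.30%. No motif contains another, and a match is not a bound site. The central 31 bp were found at 1 place of the genome for 217 of 220 WT and 118 of 119 KO peaks. Within 2 kb of another protein-coding gene's start lay 23 of the WT and 16 of the KO peaks, mainly at Irx5, Six5, Lhx9, Lhx1 and Six6.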

How the data were processed

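ATAC-seq of 1 WT and 1 Uhrf1 KO library of E14 ESCs was analysed. The authors mapped reads to mm9 with Bowtie2 2.1.0 and used fragments shorter than a mononucleosome. The submitters' processing notes also list HOMER 4.9.1, without a role. The deposited files hold peak positions, a name and a score of 1 for each peak. The peak caller, its threshold and any Tn5 shift are not given in the sources used here.

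Peaks were placed with GENCODE vM1 gene models and the NCBIM37 (mm9) genome, using Python 3.11.15, numpy 2.4.6, scipy 1.17.1 and numba 0.67.0. RefSeq promoter sequences were on another build and were not used. With 1 library per genotype no test between genotypes was made. The partner routine was tested on 5000 simulated regions and made 0 wrong calls.

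The members and gene lists were chosen with earlier results of these data known. All members are accounted for by family, with fuller values for those with a promoter peak in 1 list only or in neither, those with the most peaks, those past the 2-fold rule, Nkx2-5, Msx2, those on chromosome 8 and those sharing a window. Alternatives covered distances, flanks, merging, partner rules, shortened lists and chromosome 8.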

Additional observations from a re-analysis of the deposited data

How the results depend on the processing

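No paired analysis was possible because WT and Uhrf1 KO had 1 library each. Of 67 alternative values, 49 stayed within their interval or within 1.5 times and 18 moved, and the KO/WT ratio of the members' peaks did not reverse in any setting tried, from 0.523 without peaks near other genes, a setting chosen after seeing the data, to 0.650 with the WT list shortened to the length of the KO list by name number, where all peaks stand at 1.00. Promoter peaks in the WT list only were found for 4 members when only the gene start counted (Lhx2 and Lhx8 besides Six2 and Dlx3, 6.87% of all genes), for 1 with the WT list shortened (Six2, 5.42%) and for 8 when both lists were cut to their lower 50% of name numbers (9.66%). With that cut 22 members kept a KO promoter peak (45.9% of all genes) and 1, Lhx1, had one in the KO list only (2.01%). Within 5 kb, 1 member (Lhx5) had one in the KO list only (2.43%). Without flanks there were 107 WT and 58 KO peaks, and with the lower name numbers 83 and 46, as fewer peaks are counted. WT-only and KO-only peaks made up 55.9% and 19.3% of the members' peaks when a partner had to share 1 bp, 65.9% and 36.1% when it had to share 50% of each peak, 35.0% in WT with a gap of up to 500 bp, and 19.3% and 2.17% for the lower name numbers against the whole other list. All peaks then stood at 38.0% and 29.4%, 50.2% and 42.4%, 24.1%, and 10.8% and 8.70%. With at least 8 peaks in both lists, 10 of 19 members had at least 2 times fewer KO peaks (16.1% of all genes), and scaling by list length (13.4%) or merging (15.5%) gave 12 of 31. The rates taken at the members' GC content and name numbers and the joined stretches were chosen after seeing the data. Without read counts per peak, depth limits every number, and weak peaks near an unknown threshold cannot be told from closed sites.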
